A study of Homo sapiens with 6 samples.

Results

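Among the gene symbols counted in the C4-2 prostate cancer cell line, 31 loci that carry the name of a genomic clone were at least 2-fold higher with supraphysiological androgen (SAL) than with solvent in every one of 3 same-numbered pairs of libraries. The members were chosen by that measurement. A symbol qualified when it had a clone-style or LINC name, a mean of at least 1 CPM (a locus's counts scaled to the library total after removal of rRNA genes) over 6 libraries, and a log2 ratio of SAL over DMSO, with 0.5 CPM added to each side, of at least 1 in each pair. Of 55765 symbols in the table, 22144 had such a name and 2958 of these reached the CPM minimum. Their changes between SAL and DMSO are therefore given as a description, without tests.

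C4-2 is a castration-resistant subline of the androgen-sensitive prostate cancer line LNCaP. In 3 cultures the cells were kept for 72 h with the solvent DMSO, and in another 3 with 1 nM R1881 (methyltrienolone), a synthetic androgen that cells metabolize slowly. Medium with fetal bovine serum was common to both groups, and the authors describe the sequencing of each condition as independently repeated. The values are one cell line's response to one dose at one time.

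Androgens act on prostate cells by changing transcription. They switch on kallikreins, proteases and lipid enzymes together with many transcripts that do not code for protein. Long noncoding RNAs are transcribed and often spliced like mRNAs, and some act on chromatin or on splicing, but for most of them no function is known. A locus with no approved gene symbol was named in older annotations after the sequenced clone it lies on, RP and CT being prefixes of clone libraries and AC, AL and AP prefixes of sequence records, and the digits after the dot number the loci of one clone. The name therefore shows where a transcript was found and not what it does. Only 2 of the 31 loci could be placed by name on the reference annotation used here, so the noncoding class, the position and the length of the other loci were not examined.

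Both loci that could be placed lie on one clone, AC078864, and both are annotated in GENCODE v44 lifted to GRCh37 as genes for predicted microRNAs, which are cut from a hairpin in a longer transcript. Their sequences are shown because each holds an inverted repeat, the feature that lets a transcript fold back on itself. AC078864.1 (ENSG00000265009.1) is on the minus strand at chr12:52504418-52504488 and AC078864.2 (ENSG00000265804.1) on the plus strand at chr12:52507709-52507796. Capitals mark the longest pair of arms that are exact reverse complements of each other.
AC078864.1: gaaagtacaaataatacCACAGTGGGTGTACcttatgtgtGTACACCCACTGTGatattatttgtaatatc
AC078864.2: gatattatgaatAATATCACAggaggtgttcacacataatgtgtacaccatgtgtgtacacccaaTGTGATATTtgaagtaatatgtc

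In the 71 bases of AC078864.1 the arms were 14 bases long with 9 bases between them, and RNAfold paired 26 base pairs at a minimum free energy of -37.8 kcal/mol. AC078864.2, with 88 bases, had arms of 9 bases with 44 bases between them and folded into 30 base pairs at -32.7 kcal/mol. As an exact full-length match, each sequence occurs at 1 place in the genome, and near matches were not searched. The GC content was 35.2% in AC078864.1 and 34.1% in AC078864.2. Aligned as annotated, the hairpins shared 58 of 88 alignment columns (65.9%), and with AC078864.2 turned to the opposite strand they shared 59 of 88 (67.0%).

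The 6 libraries held between 7864471 and 12532355 counts on genes, of which 11.9% to 27.8% fell on rRNA genes, and 6931042 to 9776990 counts remained after their removal. Reads on no annotated exon, which can be intronic, made up 24.0% and 30.1% of the tallied reads in the libraries numbered 2. In the other 4 they made up 37.3% to 48.3%. Among markers of prostate luminal cells, FOLH1 had 5768 to 8854 counts per library, HOXB13 340 to 1814, KRT8 453 to 12395 and KRT18 143 to 1688. The keratins KRT8 (log2 fold change 2.45) and KRT18 (1.71) were up-regulated by SAL, while FOLH1 (-0.09) and HOXB13 (-0.07) were not called. Basal markers summed to at most 0.367 CPM in any library with KRT5 at 0, and immune markers to at most 0.577 CPM with PTPRC and CD3E at 0. Stromal markers summed to 3.30 to 11.6 CPM in DMSO and 12.6 to 16.7 CPM in SAL, with COL1A2 at 0 and ACTA2, a smooth muscle actin, up-regulated (log2 fold change 2.61, adjusted p = 6.63e-06 by edgeR's quasi-likelihood test with the replicate number as a block). COL1A1, at 1.71 to 10.5 CPM in DMSO, was not called (log2 fold change 0.21). Neuroendocrine markers summed to 3.9 to 12.5 CPM in DMSO and 4.3 to 7.6 CPM in SAL, with 0 up-regulated and 0 down-regulated. The endothelial marker VWF, at 0.49 to 3.79 CPM in DMSO, was not called either. The stromal list's part in the results on the clone-named loci was not tested. In such libraries of whole cultures, fewer cells that make a transcript and less of it per cell cannot be told apart.

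Coding genes known to respond to androgens were up-regulated in these libraries. Of 20 androgen-induced coding genes, 19 were up-regulated in the edgeR fit, against 11.5% of all genes tested. The list was chosen with earlier results of these data known, so this is a description. The list's median log2 fold change was 1.77, and 14 had a log2 ratio of at least 1 in all 3 pairs. FKBP5, an immunophilin cochaperone, was counted 717, 768 and 1110 times with DMSO and 6719, 11341 and 11405 times with SAL (log2 fold change 3.36, adjusted p = 1.84e-11). STEAP4, a metalloreductase, went from 7, 2 and 7 counts to 925, 612 and 888. TMEM140 was the exception, with a log2 fold change of 0.43 and an adjusted p of 0.0868.

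The share of symbols that met the rule was 1.05% among clone-named loci (31 of 2958), 1.56% among all genes at the CPM minimum and 1.66% among the genes with other names (242 of 14542). By kind of name, 18 of 2012 RP symbols qualified (0.895%), 2 of 340 CT symbols (0.588%), 11 of 508 AC, AL or AP symbols (2.17%) and 0 of 98 LINC symbols (0.0%). In the opposite direction the same rule took 17 clone-named loci (0.575%) and 0.8% of all genes. In the edgeR fit, 124 of 2667 clone-named loci tested were up-regulated (4.65%) and 117 down-regulated (4.39%), against 12.8% and 10.3% of the other genes tested. The difference between these shares was not tested, and clone-named loci were also counted more sparsely. Their median level was 2.62 CPM, against 16.6 CPM over all genes at the minimum.

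The 31 members had a median level of 5.43 CPM over the 6 libraries, with a range from 1.22 to 220.5 CPM. Means under 5 CPM were found for 14 of them, means of 5 to 20 CPM for 13, and higher means for 4. In DMSO, 14 had under 10 counts in every library and 2 had none at all. All 31 passed the filter on low counts and were called up-regulated by edgeR, where 11.5% of all 16835 genes tested were (and 9.37% down-regulated), and nothing is read from this because the choice of members used the same contrast. Their fitted log2 fold changes ran upward from 1.37 with a median of 2.49, which does not move when the 2 loci at 0 in DMSO are set to their lower bounds, beside a median of -0.0011 over all genes tested. The rule also favours separation of the groups, so that is a description too. In 26 of the 31 every SAL library was above every DMSO library, as in 3.0% of all genes and 2.57% of all clone-named loci at the minimum. The other 5, AC016831.7, RP11-223C24.2, AC097461.4, RP11-138A9.2 and AC133680.1, overlapped between the groups, although each was higher in SAL within its pair.

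**Figure D1:**
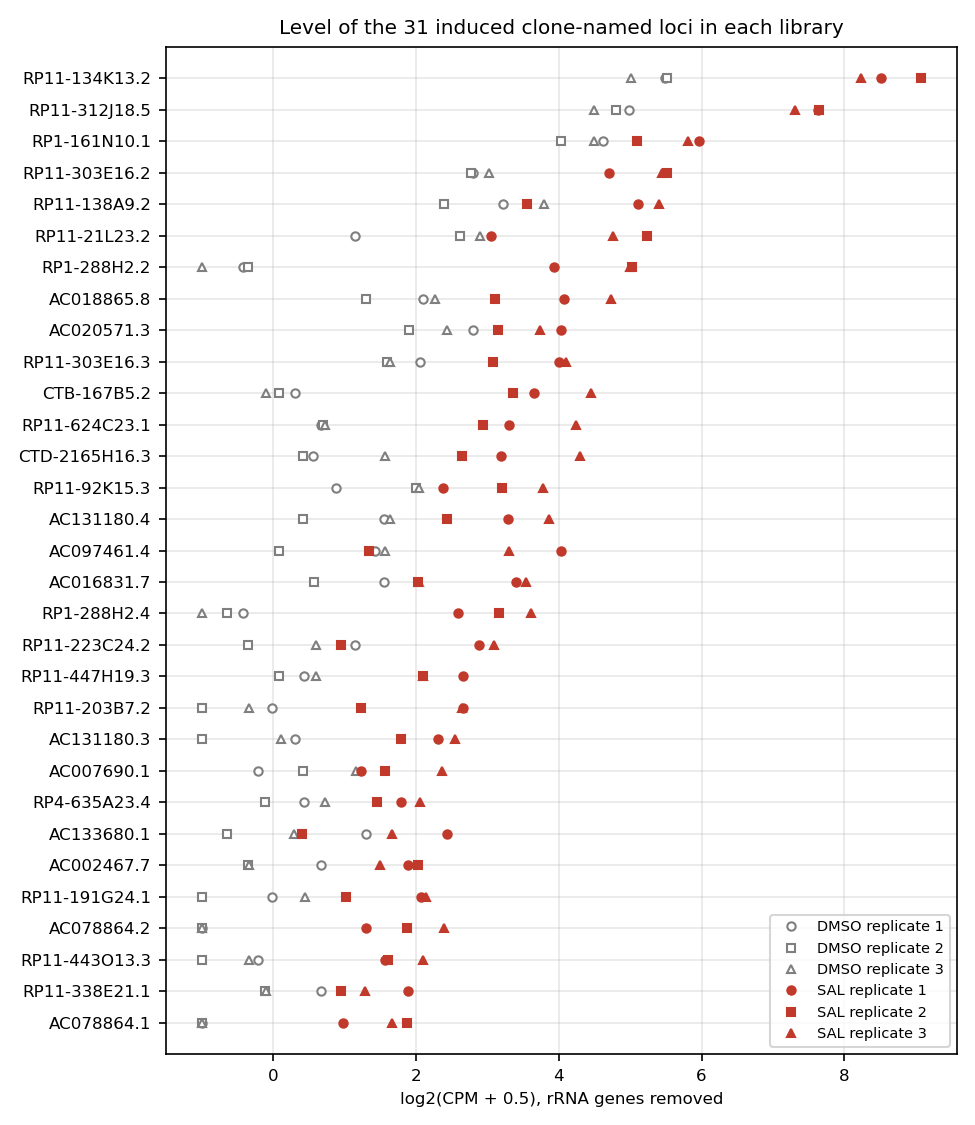
Level of each of the 31 loci in the 6 libraries, as log2 of CPM plus 0.5 after removal of rRNA genes, ordered by mean level. Open grey symbols are DMSO and filled red symbols SAL, with the shape giving the replicate number. RP11-134K13.2 and RP11-312J18.5 lie far to the right of the others in SAL, and the 2 AC078864 loci sit at the left edge (0 counts) in DMSO.

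Most of the induced reads came from 2 loci. For replicates 1, 2 and 3 in turn, RP11-134K13.2 had 44.6, 45.3 and 31.9 CPM in DMSO and 363, 538 and 299.9 CPM in SAL. The lowest SAL value was several times the highest DMSO value, and the mean went from 40.6 ± 7.55 to 400.4 ± 123 CPM (SD, n = 3), with a fitted log2 fold change of 3.37 (standard error 0.12). Ranked by reads among the clone-named loci, not divided by transcript length, it was 94th in DMSO and 3rd in SAL, and in SAL it was 286th among all genes.

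RP11-312J18.5 gave 31.3, 27.4 and 21.9 CPM in DMSO and 198, 199.7 and 158 CPM in SAL. The pair ratios were nearly equal, at log2 2.64, 2.85 and 2.82, and the fitted log2 fold change was 2.88 (standard error 0.11). All 31 members together summed to 152.6, 124.7 and 140.2 CPM in the DMSO libraries and to 877.3, 1003 and 883.5 CPM in the SAL libraries. RP11-134K13.2 and RP11-312J18.5 made up 64.0%, 73.6% and 51.8% of the SAL sums. The share was lowest in SAL replicate 3, where RP11-134K13.2 was lowest and several smaller loci were highest.

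Another group was close to silent with solvent. RP1-288H2.2 had 2, 2 and 0 counts in DMSO and 120, 314 and 258 in SAL. With 4 counts in all of DMSO, its ratio of pooled CPM was 147.6, with a 95% interval for counting error from 57.4 to 543.1. RP1-288H2.4 on the same clone had 2, 1 and 0 counts in DMSO and 45, 83 and 96 in SAL, a ratio of 63.7 (interval 21.5 to 311.1). Both loci of this clone had their lowest SAL level in replicate 1 and counts near the detection limit in every DMSO library.

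CTB-167B5.2 followed with 6, 4 and 3 counts in DMSO and 98, 95 and 176 in SAL, a ratio of 24.2 (interval 14.0 to 45.9). For RP11-203B7.2 there were 4, 0 and 2 counts in DMSO and 47, 18 and 47 in SAL, a ratio of 15.9 (interval 7.09 to 44.3). RP11-624C23.1 was at 9, 8 and 8 counts in DMSO, a steady 1.13 ± 0.0276 CPM, and at 76, 70 and 151 counts in SAL. CTD-2165H16.3 had 8, 6 and 17 counts in DMSO and 70, 56 and 157 in SAL. In both of the last 2 loci SAL replicate 3 stood well above the other SAL libraries, and in both every SAL library was above every DMSO library. These intervals cover counting error only and not the spread between cultures.

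The AC078864 hairpins printed above had no counts in any DMSO library. AC078864.2 had 16, 31 and 39 counts in SAL and was at least 8.12-fold higher than 3 counts in each DMSO library, the limit that a count of 0 allows. AC078864.1 had 12, 31 and 22 counts in SAL and was at least 6.01-fold higher by the same limit. This limit, set for each library, is stricter than the pooled interval used for the loci above. The lower ends of that interval, for counting error only, were 19.5 for AC078864.2 and 14.6 for AC078864.1. With 0 counts in 3 libraries, transcripts of either locus were not detectable with solvent at this depth, which does not show that they were absent. The libraries were made from total RNA, so reads on these hairpins do not tell a precursor from a longer transcript across it or from a mature microRNA.

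**Figure D2:**
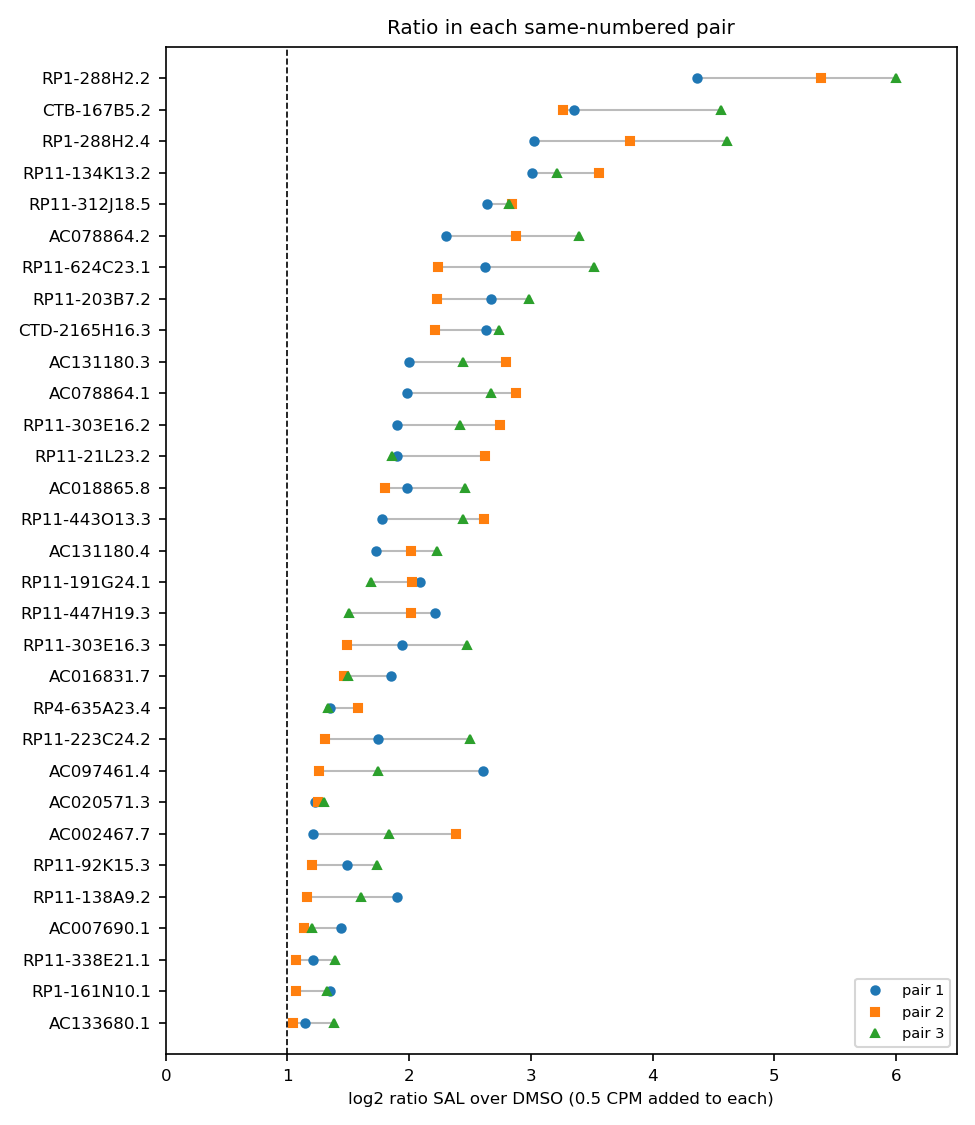
The log2 ratio of SAL over DMSO (0.5 CPM added to each) in each of the 3 same-numbered pairs for the 31 loci, ordered by the smallest of the 3. The dashed line is the rule's limit of 1. RP1-288H2.2 lies at 4.36 or above in each pair, while AC133680.1 starts at 1.04.

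There were 4 clones with 2 members each, so the 31 loci came from 27 clones, and loci of one clone may be parts of one transcript. On clone RP11-303E16, RP11-303E16.2 had 53, 45 and 53 counts in DMSO and 207, 442 and 353 in SAL, and RP11-303E16.3 had 30, 18 and 18 in DMSO and 126, 78 and 137 in SAL. The loci of this clone did not keep one ratio. In SAL replicate 2 the first was at its highest level and the second at its lowest, so that RP11-303E16.3 held 60.9%, 17.6% and 38.8% of the counts of RP11-303E16.2 in the 3 SAL libraries. On clone RP1-288H2 the locus with fewer counts held 37.5%, 26.4% and 37.2% of those of the other. On AC078864 the corresponding shares were 75%, 100% and 56.4%. AC131180.4 had 20, 6 and 18 counts in DMSO and 75, 48 and 115 in SAL. AC131180.3 had 6, 0 and 4 in DMSO and 36, 29 and 44 in SAL. In the SAL libraries that was 48.0%, 60.4% and 38.3% of the counts of AC131180.4.

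The same clones also name loci that missed the rule. There were 28 such symbols on 16 of the 27 clones, of which 7 had no count and 8 were tested. Of these 8, 4 were up-regulated, 0 were down-regulated, and 6 were higher in SAL in all 3 pairs. RP11-223C24.1 had 8, 5 and 8 counts in DMSO and 53, 16 and 65 in SAL (log2 fold change 2.52, edgeR adjusted p = 0.000111). It missed the rule in pair 2, at a log2 ratio of 0.83, where the member RP11-223C24.2 on its clone also had its lowest ratio, 1.31. RP11-138A9.1, on the clone of the member RP11-138A9.2, was up-regulated with a log2 fold change of 1.37 (adjusted p = 0.000463). RP11-338E21.3 changed by 0.90 (adjusted p = 0.00455) and CTD-2165H16.4 by 0.97 (adjusted p = 0.0318). Without replicate 3 the adjusted p of RP11-338E21.3 was 0.102, and that of CTD-2165H16.4 ran from 0.0877 to 0.143 when any 1 replicate number was left out and was 0.21 with DESeq2. Not every locus on such a clone moved with its member. AC018865.5 had 8, 26 and 15 counts in DMSO and 8, 36 and 19 in SAL (log2 fold change 0.15, adjusted p = 0.798), on the clone where AC018865.8 went from 31, 14 and 30 counts to 133, 79 and 214. The log2 fold change was -0.25 for RP11-92K15.1 (adjusted p = 0.688), 0.85 for RP11-21L23.3 (adjusted p = 0.103) and 1.00 for RP11-338E21.2 (adjusted p = 0.14). Without replicate 1, RP11-21L23.3 (adjusted p = 0.0172) and RP11-338E21.2 (adjusted p = 0.00614) passed the threshold. Since these loci are the ones that missed the rule, their share of calls is not set against the background.

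RP1-161N10.1, one of the 4 members with a mean of at least 20 CPM, had 24.1, 15.9 and 21.9 CPM in DMSO and 62.1, 33.8 and 55.8 CPM in SAL. Its mean went from 20.6 ± 4.26 to 50.6 ± 14.9 CPM, and its fitted log2 fold change of 1.37 (standard error 0.12) was the smallest of all 31. RP11-138A9.2 had 8.80, 4.77 and 13.4 CPM in DMSO and 34.1, 11.3 and 41.7 CPM in SAL. Its SAL replicate 2 lay below its DMSO replicate 3, so the groups overlapped while each pair did not.

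RP11-21L23.2 was at 1.71, 5.61 and 6.93 CPM in DMSO and 7.77, 37.1 and 26.5 CPM in SAL. Replicate 1 was well below the other numbers in both groups, and SAL replicate 1 was only just above DMSO replicate 3. AC018865.8 had 3.79, 1.96 and 4.33 CPM in DMSO and 16.4, 8.08 and 26.1 CPM in SAL. AC020571.3 had 6.47, 3.23 and 4.91 CPM in DMSO and 15.8, 8.39 and 12.8 CPM in SAL, with pair ratios of log2 1.22, 1.25 and 1.30 that were nearly equal although its levels were not.

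Close to the rule's limit, the smallest pair ratio was log2 1.04 for AC133680.1, 1.07 for RP1-161N10.1 and RP11-338E21.1, 1.14 for AC007690.1 and 1.16 for RP11-138A9.2. Just outside it lay LINC00883 at 0.996, AC097467.2 at 0.981, AC092535.3 at 0.938, CTD-2008A1.2 at 0.885 and CTD-2184C24.2 at 0.865. AC133680.1 had 16, 1 and 5 counts in DMSO and 40, 8 and 22 in SAL, RP11-338E21.1 had 9, 3 and 3 and then 26, 14 and 16, and AC007690.1 had 3, 6 and 12 and then 15, 24 and 38. LINC00883, with 44, 23 and 27 counts in DMSO and 91, 88 and 95 in SAL, was better counted than these 3. The pair ratios of LINC00883 alone ran from 0.996 to 1.46, a wider span than the step across the limit.

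The other 9 members were RP11-443O13.3, RP11-191G24.1, RP11-447H19.3, AC016831.7, RP4-635A23.4, RP11-223C24.2, AC097461.4, AC002467.7 and RP11-92K15.3. Their mean levels were 0.218 to 2.82 CPM in DMSO and 2.94 to 9.11 CPM in SAL, with fitted log2 fold changes of 1.75 to 3.71.

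Because the rule uses all pairs, it was also applied to each set of 2 pairs, and the loci so chosen were read in the pair left out, which had no part in their choice. Without pair 1 the rule took 43 clone-named loci, of which 31 had a log2 ratio of at least 1 in pair 1 (72.1%) and 37 were above 0. Their median ratio there was log2 1.74, while 4.40% of all 2841 clone-named loci that reached the CPM minimum were at 1 or more, with a median of -0.06. Without pair 2 it took 51 loci, of which 33 were at 1 or more in pair 2 (64.7%, against 4.49% of 3121), with a median of 1.25. Without pair 3 it took 38, of which 31 were at 1 or more in pair 3 (81.6%, against 3.44% of 2819), with a median of 1.79. The loci at 1 or more were the 31 members again for pairs 1 and 3, joined for pair 2 by AC018865.9 and RP11-274J7.3. These counts therefore follow from the rule, and the shares vary with how many other loci were taken. They do not check the members apart from the rule. With TMM-scaled library totals in place of column sums, the shares were 57.9%, 60.3% and 73.3% for pairs 1, 2 and 3, so the order of pairs 1 and 2 turned with the scaling. The loci that failed included AC018766.5, at a log2 ratio of -0.99 in pair 1, and RP11-152P17.3, at -0.996 in pair 2, and neither is among the 31.

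**Figure D3:**
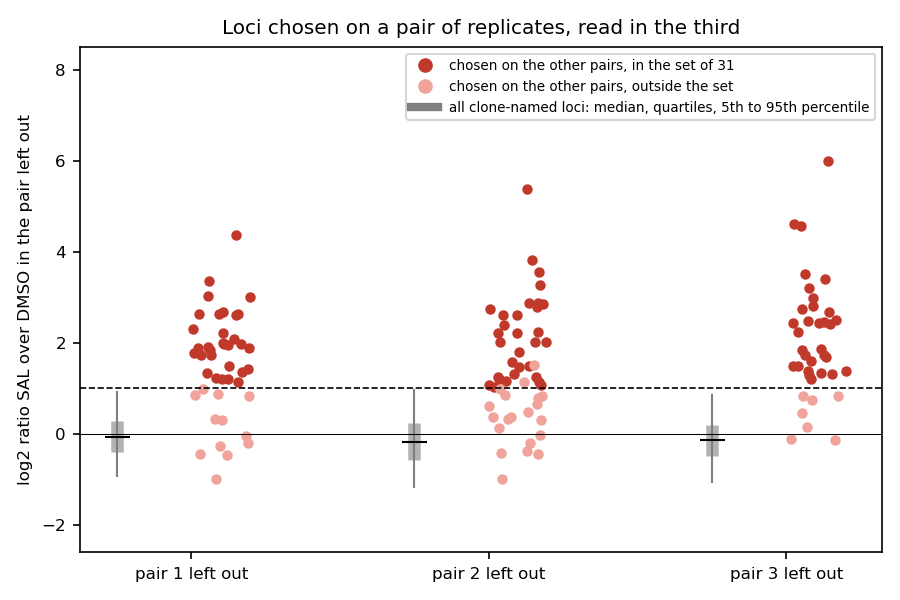
Log2 ratio of SAL over DMSO in the pair that was left out, for clone-named loci chosen on the remaining pairs. Dark points are in the set of 31 and pale points are not, and grey bars show the median, quartiles and 5th to 95th percentiles of all clone-named loci at the CPM minimum. Most points lie at or above the dashed line at 1, with 31 of 43, 33 of 51 and 31 of 38 for pairs 1, 2 and 3. The rule puts every member at 1 or more in every pair, so the dark points are no check of it.

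Replicate 2 stood apart for many clone-named loci, the members among them. Relative to the mean of replicates 1 and 3, 21 of the 31 loci were lower in replicate 2 with both DMSO and SAL (67.7%), 4 were higher with both, and the median deviation was log2 -0.52 in DMSO and -0.67 in SAL. The same share was 59.1% over all clone-named loci at the minimum and 47.1% over all genes there. Median deviations in DMSO and SAL were -0.387 and -0.442 over the clone-named loci and -0.08 and -0.11 over all genes. Across the 31 members the deviations in DMSO and SAL correlated at a Pearson r of 0.81 and a Spearman rho of 0.82, across all clone-named loci at an r of 0.63 and across all genes at 0.85. The loci are not independent of each other and share the same 6 libraries. SAL replicate 2 was the lowest SAL library for 18 members and the highest for 7. No such count over all clone-named loci is set beside this, so nothing is read from it.

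The loci with the largest deviations in SAL were AC097461.4, with 18, 4 and 17 counts in DMSO and 129, 20 and 77 in SAL, and RP11-223C24.2, with 14, 2 and 7 counts and then 56, 14 and 66. RP11-21L23.2, RP11-134K13.2 and RP1-288H2.2 were highest in SAL replicate 2. The nuclear noncoding RNA MALAT1 shared the low values in replicate 2, at log2 -1.08 in DMSO and -1.66 in SAL, and so did NEAT1, the RNA core of paraspeckles, at -0.52 and -1.33. The libraries numbered 2 also had the smallest shares of reads on no annotated exon, as given above. The part of that difference in the members' levels was not tested, and the ratios within pairs compare libraries of the same number.

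**Figure D4:**
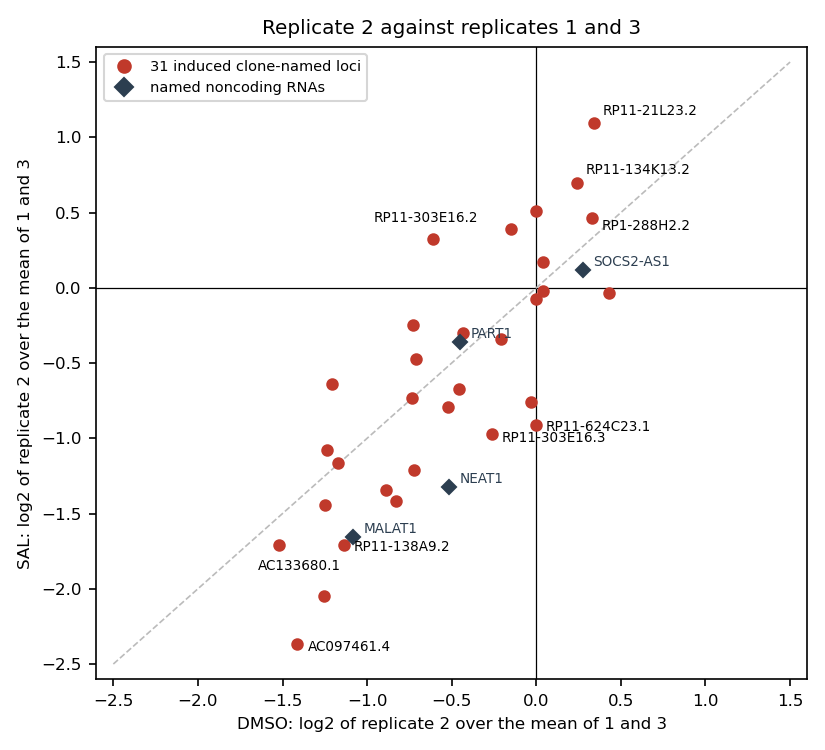
Deviation of replicate 2 from the mean of replicates 1 and 3, as a log2 ratio, in DMSO (horizontal) and SAL (vertical). Circles are the 31 loci and diamonds are 4 named noncoding RNAs, and the dashed line marks equal deviation. Of the 31, 21 (67.7%) lie in the lower left, where replicate 2 is low with both treatments. The share was 59.1% over all clone-named loci at the CPM minimum.

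Around the AC078864 hairpins, on the long arm of chromosome 12, the counts of annotated neighbours could be read beside them. The nearest gene with counts was OR7E47P, annotated as a transcribed olfactory receptor pseudogene and as a long noncoding RNA, which ends 2373 bp before AC078864.1 on the plus strand. It had 12, 5 and 7 counts in DMSO and 309, 690 and 538 in SAL. No library of one group came near the other, and OR7E47P was up-regulated with a log2 fold change of 5.79 (standard error 0.25, edgeR adjusted p = 3.25e-09). Its family has many near-identical copies, and reads that match several places were not counted. The hairpins themselves lie 3221 bp apart, and SMIM41, the nearest annotated coding gene at 2379 bp, was not analysed here. SMIM41 is annotated on the plus strand from 52473488 to 52502039. The long noncoding RNA OR7E47P, from 52478528 to 52502034 on the same strand, lies within it. Whether reads counted on OR7E47P came from SMIM41 transcripts was not tested.

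The nearest coding gene with counts was ATG101, a component of the kinase complex that starts autophagy, which the table lists by its older symbol C12orf44 and which lies 33139 bp from AC078864.1. It had 94, 117 and 68 counts in DMSO and 102, 279 and 134 in SAL, and its log2 fold change was 0.67 (adjusted p = 0.0123). The call was lost with DESeq2 (adjusted p = 0.0511), without replicate 2 (0.152) and without replicate 3 (0.177). For comparison, 12 of 86 nearest measured coding genes of other placed clone-named loci were up-regulated (14.0%), a share that a single gene cannot be read against. NR4A1, an orphan nuclear receptor gene 51127 bp away, had 24, 52 and 45 counts in DMSO and 47, 211 and 116 in SAL (log2 fold change 1.38, adjusted p = 0.000152). Farther out, GRASP had 7 or 8 counts in every library and KRT80, a keratin gene on the other side, had 2 to 11, so neither was tested, and LINC00592 and C12orf80 had none. Within this window, the counts of OR7E47P and both hairpins were those that separated by treatment without overlap and by the largest ratios. The hairpins were chosen by such ratios, so nothing is read from their separation.

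**Figure D5:**
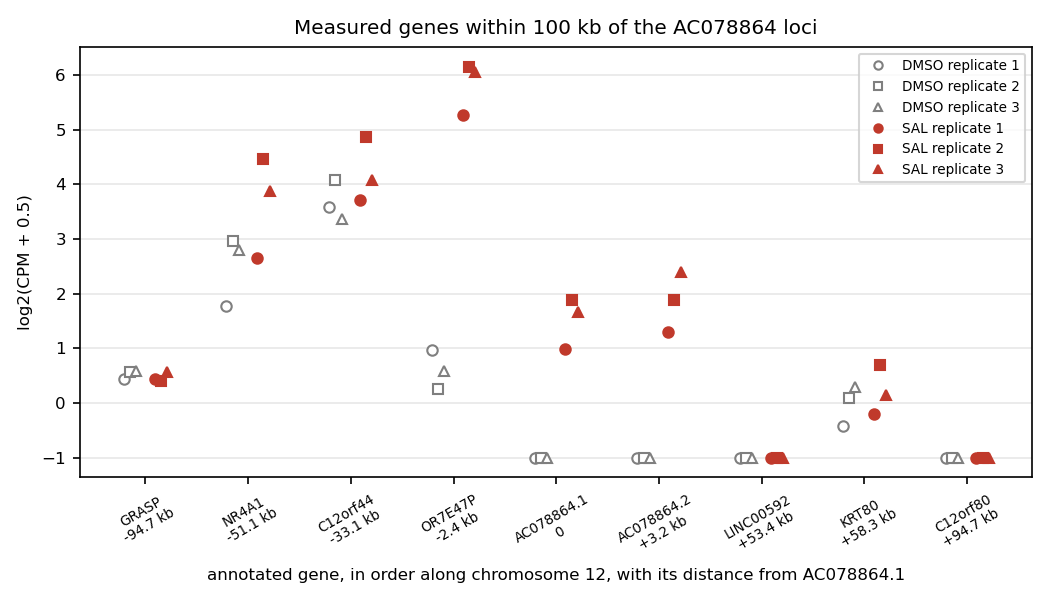
Level of the measured genes within 100 kb of AC078864.1 in the 6 libraries, as log2 of CPM plus 0.5, in their order along chromosome 12 with the distance from AC078864.1 below each name. Open symbols are DMSO and filled symbols SAL. OR7E47P and both hairpins separate by treatment, GRASP and KRT80 stay low in every library, and LINC00592 and C12orf80 are at 0.

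Named noncoding RNAs that are known in prostate cancer, or are common long noncoding RNAs, were read beside the clone-named loci. Of a list of 30, 21 symbols were among those counted and 15 were tested. Of these, 4 were up-regulated, 2 down-regulated and 9 not called, against 11.5% up-regulated and 9.37% down-regulated of all genes tested. The median log2 value of the list was -0.08. SOCS2-AS1, an androgen-responsive antisense transcript at SOCS2, had 10, 11 and 8 counts in DMSO and 82, 109 and 85 in SAL (log2 fold change 3.10, adjusted p = 4.72e-07). PART1, a prostate-specific androgen-regulated transcript, had 45, 19 and 15 counts and then 208, 171 and 160 (log2 fold change 2.71, adjusted p = 2.84e-07). Both met the members' ratio in all 3 pairs, and they were the only ones of the 21 that did.

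MALAT1, by far the best counted of the list, was up-regulated by 0.62 on the log2 scale (adjusted p = 0.0024), and PCAT6 by 1.21 (adjusted p = 0.0206). Both calls were lost without replicate 3, at an adjusted p of 0.277 for MALAT1 and 0.204 for PCAT6, and PCAT6 was also lost without replicate 2 (0.117) and with DESeq2 (0.139). SNHG1 and GAS5, which host small nucleolar RNAs, were down-regulated, SNHG1 at a log2 value of -0.61 (adjusted p = 0.000443) and GAS5 at -0.34 (adjusted p = 0.0313). GAS5 lost its call whenever 1 replicate number was left out, with an adjusted p of 0.0508 to 0.165, and with DESeq2 (0.0702). PCA3, the noncoding RNA measured in urine to detect prostate cancer, had 1578, 671 and 2396 counts in DMSO and 1590, 624 and 1812 in SAL (log2 fold change -0.29, adjusted p = 0.0839), and it passed the threshold without replicate 1 (7.38e-05). NEAT1, TUG1 and LINC00963 were at 0.50, -0.08 and -0.09 with adjusted p-values of 0.249, 0.646 and 0.539, and NEAT1 passed without replicate 2 (0.0106).

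The reads were counted without regard to strand. Nothing in such counts separates reads of a clone-named locus from those of a gene across it on the opposite strand. This could be looked at by position for the AC078864 loci alone, which overlap no annotated gene with counts.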

How the data were processed

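RNA-seq libraries of C4-2 cells, 3 with DMSO and 3 with SAL, were grouped and numbered by their labels. The deposited values are raw counts per gene symbol. The authors trimmed 4 bases and low-quality ends, mapped R1 reads to hg19 (TopHat2 2.1.0, with Bowtie) and counted exon reads with HTSeq 0.11.2 and GENCODE v19, ignoring strand. Tallies of uncounted reads served only to describe libraries. Here 523 rRNA symbols were removed, as in the study. SAL was compared with DMSO for 16835 symbols that passed filterByExpr, with the robust quasi-likelihood test of edgeR 4.0.16 (R 4.3.3, TMM), the replicate number as a block and Benjamini-Hochberg adjustment over all genes tested. An adjusted p under 0.05 was called.

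The block follows the study's paired test. Same-numbered libraries deviated together from their group means (r = 0.886, 0.856 and 0.739). For unlike-numbered ones r was -0.823 to 0.039. Deviations within a group cancel by construction, so the unlike-numbered values are no separate check. Data were simulated for this comparison and these 16835 genes, with changes planted only in better counted ones. Of log2 changes of 1, 88% were called, and of changes of 2, 99%, 0 with the wrong sign, and 5.56% of calls were false. The shares of changes called do not cover sparsely counted loci, as many members are. The 6 libraries limit the precision of every test.

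A luminal marker and the sums that include it are not reported here. The members and lists were chosen with earlier results of these data known. Members named with values are the 10 highest by level, the 10 with the largest smallest pair ratio, the 5 just inside the rule, and those sharing a clone; of the lists, called genes and up to 4 others. CPM are counts over the column sum, and ratios add 0.5 CPM. Ratio intervals (95%) are exact binomial intervals of the pooled counts. Positions and sequences come from GRCh37 with GENCODE v44 (lifted), folding from RNAfold 2.7.2 and alignments from Biopython 1.88. Of the 2958 clone-named loci at the CPM minimum, 124 could be placed by name, so neighbouring genes were compared for 2 members only.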

Additional observations from a re-analysis of the deposited data

How the results depend on the processing

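The 31 members became 66 with a limit of log2 of 1.5 and 38 to 51 when 1 replicate number was left out, the 51 without replicate 2. The other settings of the rule (TMM-scaled totals, rRNA genes kept, mitochondrial genes removed, pseudocounts of 0.1 and 1 CPM, minima of 0.5 and 2 CPM, at least 10 counts in every SAL library) gave 22 to 42. With a pseudocount of 1 CPM, the share of loci at 1 or more in left-out pair 3 was 92.9%. Without the replicate block, edgeR called 18 genes up-regulated and 3 down-regulated. Among them were 5 and 0 clone-named loci, 1 and 0 RNAs of the noncoding list, and 2 androgen-induced coding genes. It called 5 of the 31 members and 0 nearest coding genes, and 28 of 46 named other genes lost their call. The 46 included genes with no call to lose, 4 on the members' clones, 9 of the noncoding list and 1 androgen-induced coding gene. With DESeq2 and the replicate block there were 950 down-regulated genes, 72 up-regulated and 47 down-regulated clone-named loci, 1 down-regulated RNA of the noncoding list and 0 nearest coding genes. With at least 10 counts in every library, 80 clone-named loci, 2 RNAs of the list and 10 members were called up-regulated, fewer loci being tested. When 1 replicate number was left out, the counts ran from 750 to 2443 up-regulated and 483 to 1955 down-regulated genes, with the lowest numbers without replicate 3, from 55 to 175 and 33 to 163 clone-named loci, from 2 to 4 and 1 to 2 RNAs of the list, from 18 to 19 androgen-induced coding genes, from 28 to 31 members, and from 0 to 1 nearest coding gene. In refits of single members the log2 fold change moved by less than the spread between replicates 272 times and by more 16 times, and none changed direction. Among the other named genes, TMPO-AS1, which was not called, went from a log2 value of -0.73 to 0.0061 without replicate 1 and to -1.38 (adjusted p = 0.039) without replicate 2. The cause of these differences was not tested. Low counts in DMSO limit the size of the ratios, most of all for loci with fewer than 10 counts in each DMSO library.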

Other observations

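Below the minimum of 1 CPM, 6 of 8234 clone-named loci with a count also had a log2 ratio of at least 1 in all 3 pairs. They were AC018865.9, RP11-59K5.1, RP11-6L6.3, RP11-274J7.3, CTD-2314B22.1 and AC092642.1. AC018865.9, on the clone of the member AC018865.8, had 2, 0 and 3 counts in DMSO and 18, 9 and 14 in SAL. RP11-6L6.3 had no counts in DMSO and 7, 6 and 12 in SAL, at least 2.41-fold higher than 3 counts in each DMSO library. These counts are too low for a firm ratio.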
